A study of Mus musculus with 6 samples.

Results

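The 6 genes described here, Emx2, Msx1, Msx2, Pax2, Amhr2 and Foxl2, encode factors that shape the Müllerian duct or the uterus that forms from it. They were taken by symbol from the deposited gene tables, and 6 of 6 were found among the 20637 genes listed. Poly(A) RNA of the whole uterus was sequenced in females at postnatal day 21, in 3 libraries of genotype Nat10 f/f (floxed controls) and 3 of genotype Nat10 d/d (Nat10-deleted). NAT10 is an acetyltransferase that places N4-acetylcytidine on RNA. The labels name no Cre driver, deleted exon or cell type of deletion, and no litter or batch, so p-values measure only the spread between these libraries. Nat10 itself was listed at 13.2, 16.4 and 9.95 FPKM in the controls and at 5.57, 5.23 and 5.53 FPKM in the Nat10-deleted libraries, so the groups did not overlap and some Nat10 transcript was present in all the deleted uteri. FPKM are fragment numbers scaled by transcript length and library depth, which helps to set levels side by side between genes. Between libraries the comparison also depends on the scaling, and other scalings were tried.

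The Müllerian ducts are a pair of epithelial tubes in a sheath of mesenchyme that become the oviducts, uterus and upper vagina. PAX2 and EMX2 are needed for the duct epithelium of the urogenital system. In males, anti-Müllerian hormone (AMH) acts through its type II receptor AMHR2 in the duct mesenchyme and the ducts regress. MSX1 and MSX2 are related homeodomain repressors, best known in the uterus for their joint role in the epithelium before implantation, and FOXL2 is a forkhead factor of the ovary that is also present in uterine stroma and muscle and acts in uterine maturation after birth.

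Emx2, Msx1, Msx2, Pax2 and Amhr2 had means in the Nat10-deleted uteri of 93.9% to 107% of the control mean. Foxl2 was lower in each Nat10-deleted uterus than in each control, at 76.8% of the control mean. None of the 6 passed an adjusted p of 0.05 in limma, where 0 of 12640 tested genes did (0.0% called). At an unadjusted p under 0.05 in limma 1 of the 6 was found, against 4.98% of all tested genes (630), and with no overlap between the groups 1 of the 6, against 10.7% of all tested genes (1356). The median log2 change of the 6 genes was -0.0022, and that of all tested genes was 0.028. This count rests on a single gene, Foxl2, and nothing about the 6 genes as a set is read from it. All 6 passed the filter on low values (at least 1 FPKM in at least 3 libraries). The plot of values by library shows the 6 genes side by side.

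**Figure D1:**
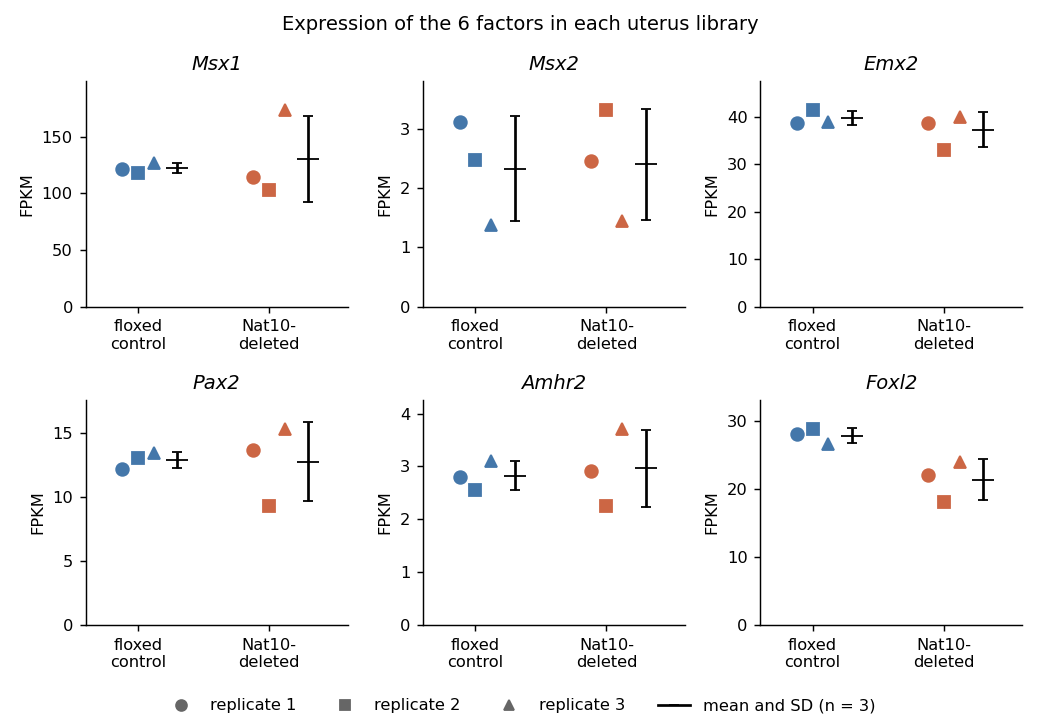
FPKM of each factor (vertical axes, each from 0) in the 3 floxed control and 3 Nat10-deleted libraries; symbols give the replicate number, and the bar gives the mean and SD (n = 3). The Foxl2 groups do not overlap (controls 26.7 to 28.9, Nat10-deleted 18.1 to 24.0), and for the other 5 genes they do.

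The factors differed widely in level. Msx1 was listed at 103 to 173 FPKM over the 6 libraries, Emx2 at 33.0 to 41.3, Foxl2 at 18.1 to 28.9 and Pax2 at 9.32 to 15.3, and these ranges did not overlap. Amhr2 (2.26 to 3.71 FPKM) and Msx2 (1.38 to 3.32 FPKM) formed the lower end, where the order changed between libraries: Amhr2 was below Msx2 in control replicate 1 (ratio of FPKM 0.895) and Nat10-deleted replicate 2 (0.681) and at or above it in the others (1.03 to 2.57). Among the genes with a value above 0 in each library, Msx1 lay between the 95.2 and 97.9 percentile of level, and Msx2 between the 21.8 and 30.0 percentile.

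Emx2 (ENSMUSG00000043969; GRCm38 chromosome 19, 59458372 to 59465357, plus strand, 3 exons in its longest transcript) encodes an empty spiracles homeodomain factor without which the urogenital tract does not form. Its controls were 38.7, 41.3 and 38.9 FPKM and its Nat10-deleted libraries 38.6, 33.0 and 40.0 FPKM. Nat10-deleted replicate 2 was the low library, while replicate 1 was just under the lowest control and replicate 3 inside the control range. The mean was 39.7 ± 1.41 FPKM in controls and 37.2 ± 3.70 FPKM in deleted uteri (SD, n = 3). The log2 change was -0.09 (SE 0.11; 95% interval -0.35 to 0.17; limma adjusted p 0.953). Without Nat10-deleted replicate 2 it was -0.01. Without Nat10-deleted replicate 3 it was -0.15, and the 2 remaining deleted libraries were below every control, in a setting where 30.2% of all tested genes did not overlap. The annotated antisense gene Emx2os shares 264 of the 3002 exon bases of Emx2 (8.79%), and no strand setting is stated, so reads of both genes cannot be told apart there. Emx1, the related gene of the same family, was listed at 0 in all 6 libraries.

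Pax2 (ENSMUSG00000004231; chromosome 19, 44756045 to 44837871, plus strand, 10 exons in its longest transcript) encodes a paired-domain factor of the duct epithelium. Its controls were 12.2, 13.0 and 13.4 FPKM and its Nat10-deleted libraries 13.6, 9.32 and 15.3 FPKM. Nat10-deleted replicate 2 was below every control, and replicates 1 and 3 were above every control. The mean was 12.9 ± 0.635 FPKM in controls and 12.8 ± 3.09 FPKM in deleted uteri (SD, n = 3), with a log2 change of -0.04 (SE 0.18; 95% interval -0.45 to 0.37; limma adjusted p 0.991). Without Nat10-deleted replicate 2 the change was 0.16 (limma adjusted p 0.572) and the groups no longer overlapped, as for 31.8% of all tested genes in that setting. Pax8, the related paired-domain gene that is also a marker of Müllerian epithelium, had the same order of deleted libraries, at 14.7, 8.82 and 19.3 FPKM against 10.1, 12.1 and 13.0 FPKM in controls (log2 change 0.21, SE 0.25; limma adjusted p 0.953).

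Msx1 (ENSMUSG00000048450; chromosome 5, 37820485 to 37824583, minus strand, 2 exons) was the factor with the highest level. Its controls were 122, 118 and 127 FPKM and its Nat10-deleted libraries 114, 103 and 173 FPKM. Nat10-deleted replicate 3 was above every control and replicates 1 and 2 were below every control. The mean was 122 ± 4.67 FPKM in controls and 130.3 ± 37.7 FPKM in deleted uteri (SD, n = 3), with the wider spread in the deleted uteri. The log2 change was 0.05 (SE 0.19; 95% interval -0.39 to 0.50; limma adjusted p 0.989). Its sign rested on replicate 3: without that library it was -0.17 (limma adjusted p 0.581), the groups did not overlap, and 30.2% of all tested genes did not overlap in that setting.

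Msx2 (ENSMUSG00000021469; chromosome 13, 53466884 to 53473074, minus strand, 2 exons) was listed far lower. Its controls were 3.13, 2.48 and 1.38 FPKM and its Nat10-deleted libraries 2.47, 3.32 and 1.44 FPKM. Both groups ran over nearly the same range. The mean was 2.33 ± 0.887 FPKM in controls and 2.41 ± 0.940 FPKM in deleted uteri (SD, n = 3), with a log2 change of 0.03 (SE 0.28; 95% interval -0.62 to 0.68; limma adjusted p 0.993). An interval of this width includes changes in either direction that are larger than that of Foxl2. The deposited values correspond to roughly 45 to 123 fragments per library for Msx2, and counting alone gives an SD of about 14.9% at the lowest of these, while the coefficient of variation was 38.1% in controls and 39.0% in deleted uteri. The ratio of Msx1 to Msx2 was 38.9, 47.5 and 92.4 in the floxed mice, against 46.4, 31.1 and 120.2 in the deleted ones. The third mouse Msx gene, Msx3, was listed at 0 in all 6 libraries.

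Among the sequences upstream of the 6 genes, those of Msx1 and Amhr2 are shown because their RefSeq starts lie within 2 bases of the annotated GENCODE starts, so the stretch is upstream in both. They stand for the highest and nearly the lowest level among the 6. Each is the 250 bases before the start in GRCm38.p6, from RefSeq, read on the strand of the gene. Capitals mark CCAAT and GGGCGG in Msx1, and AAGGTCA and TAATTG in Amhr2, on either strand. None of these matches overlaps another.
Msx1 (chr5:37824586-37824835, minus strand): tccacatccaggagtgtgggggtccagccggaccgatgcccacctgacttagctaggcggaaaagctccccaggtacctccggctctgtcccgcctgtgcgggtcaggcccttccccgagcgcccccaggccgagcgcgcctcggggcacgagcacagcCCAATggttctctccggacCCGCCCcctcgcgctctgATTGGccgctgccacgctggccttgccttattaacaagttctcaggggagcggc
Amhr2 (chr15:102445117-102445366, plus strand): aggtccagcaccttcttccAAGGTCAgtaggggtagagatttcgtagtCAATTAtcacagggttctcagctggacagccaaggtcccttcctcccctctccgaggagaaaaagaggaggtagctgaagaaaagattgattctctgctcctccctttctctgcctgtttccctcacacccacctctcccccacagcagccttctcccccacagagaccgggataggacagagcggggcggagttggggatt
The Msx1 stretch had 68.0% G and C, against a median of 52.4% over 32851 such stretches, and the Amhr2 stretch 55.2%. CCAAT occurred 2 times upstream of Msx1 and in 33.9% of all stretches, and GGGCGG occurred 1 time there and in 32.7%. AAGGTCA, the half-site bound by the orphan receptor NR5A1 among other nuclear receptors, occurred 1 time upstream of Amhr2, 231 bases before the start, and in 4.08% of all stretches. TAATTG, a homeodomain motif of the MSX type, occurred 1 time upstream of Amhr2, 202 bases before the start, and in 7.17% of all stretches. TATAAA was in neither stretch and in 12.4% of all. GGGCGG also occurs 1 time upstream of Amhr2 and is not capitalized there. These matches describe the letters only.

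Amhr2 (ENSMUSG00000023047; chromosome 15, 102445367 to 102454633, plus strand, 11 exons in its longest transcript) encodes the receptor that binds AMH. Its controls were 2.80, 2.56 and 3.11 FPKM and its Nat10-deleted libraries 2.92, 2.26 and 3.71 FPKM. Nat10-deleted replicate 2 was below every control and replicate 3 above every control. The mean was 2.82 ± 0.277 FPKM in controls and 2.96 ± 0.727 FPKM in deleted uteri (SD, n = 3), with a log2 change of 0.04 (SE 0.17; 95% interval -0.36 to 0.44; limma adjusted p 0.989). These values correspond to roughly 63 to 91 fragments, with a counting SD of about 12.6% at the lowest, against a coefficient of variation of 9.80% in controls and 24.5% in deleted uteri. The change had the opposite sign when control replicate 2 (-0.01) or Nat10-deleted replicate 3 (-0.10) was left out.

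Transcripts of the partners of AMHR2 were present, and the transcript of its ligand was near absent in the uterus. The AMH protein was not measured here. Amh was listed at 0.0799, 0.295 and 0.683 FPKM in the floxed mice and at 0.198, 0.118 and 0.287 FPKM in the deleted ones, about 2 to 16 fragments each. Nr5a1, whose product activates Amh and Amhr2 in the gonad, was listed at 0 in 5 of the libraries. Of the 13 genes of AMH signalling, 11 were tested and 0 passed an adjusted p of 0.05 in limma, against 0.0% of all tested genes. At an unadjusted p under 0.05 limma found 0 of the 11, against 4.98% of all tested genes. On average 5 were higher and 6 lower, with a median log2 change of -0.01. The groups overlapped for all 11, while 10.7% of all tested genes did not overlap. With 11 genes nothing about AMH signalling is read from these counts. The type I receptor genes Acvr1 (log2 change -0.01, SE 0.11) and Bmpr1a (0.02, SE 0.11) and the signal transducer Smad5 (-0.05, SE 0.13) differed by less than their standard errors. Acvr1 was listed at 13.9 to 16.3 FPKM over the 6 libraries and Bmpr1a at 41.7 to 48.6.

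Foxl2 (ENSMUSG00000050397; chromosome 9, 98955288 to 98958543, plus strand, a single exon) was the one factor whose groups did not overlap. Its controls were 28.1, 28.9 and 26.7 FPKM and its Nat10-deleted libraries 22.2, 18.1 and 24.0 FPKM. The deleted libraries stood at 79.4%, 64.8% and 86.1% of the control mean, with replicate 2 again the low one. The mean was 27.9 ± 1.10 FPKM in controls and 21.4 ± 3.04 FPKM in deleted uteri (SD, n = 3). The log2 change was -0.37 (SE 0.13; 95% interval -0.67 to -0.08), with an unadjusted p of 0.0202 and an adjusted p of 0.922 in limma. The exact two-sided permutation test gave 0.1, the smallest p that 3 libraries against 3 allow. Of all tested genes, 4.6% lay lower in every deleted library than in every control, so Foxl2 is 1 of 582 such genes. With 1 of the 6 libraries left out the Foxl2 change was between -0.46 and -0.26. Leaving out control replicate 1 or 2 raised its unadjusted limma p to 0.0601 or 0.0656. In these settings 0 of the 6 genes were under 0.05, against 363 of 12523 and 469 of 12587 tested genes. Its exon shares 12 bases with the antisense gene Foxl2os (0.369% of its length).

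Ratios within a library do not depend on how libraries are scaled, and all 15 ratios among the 6 factors were computed. The ratio of Emx2 to Foxl2 was 1.38, 1.43 and 1.46 in the floxed mice, against 1.74, 1.82 and 1.66 in the deleted ones. The groups did not overlap for 4 of the 15 ratios, those of Foxl2 to Msx1, Emx2, Pax2 and Amhr2, and Foxl2 was on the lower side in the deleted libraries in each. For each of these the exact two-sided permutation p was 0.1, or 0.375 adjusted over the 15 ratios by Benjamini-Hochberg. These ratios share Foxl2 and are not independent of its own difference. The ratio of Foxl2 to Msx2 overlapped between the groups, and so did the 10 ratios without Foxl2.

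The deleted libraries were more spread than the controls for each of the 6 genes. On the log2 scale the ratio of the deleted SD to the control SD was 7.20 for Msx1, 5.19 for Pax2, 3.63 for Foxl2, 2.89 for Emx2, 2.55 for Amhr2 and 1.02 for Msx2. The median of these ratios was 3.26, and over all tested genes it was 1.73, with the larger SD among deleted libraries in 73.9% of genes. The order of the deleted libraries was shared by most factors. Nat10-deleted replicate 2 was the lowest of the 6 libraries for 5 of the 6 genes (25.7% of all tested genes were lowest there), and Msx2 was highest in it. Nat10-deleted replicate 3 was the highest library for 3 genes, Msx1, Pax2 and Amhr2 (22.1% of all tested genes). The median deviation of the 6 genes from the control mean was 0.00059, -0.25 and 0.12 on the log2 scale in Nat10-deleted replicates 1, 2 and 3, and that of all tested genes was 0.012, 0.027 and 0.026. These shares are descriptions, since the 6 genes were chosen with results of these libraries known.

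**Figure D2:**
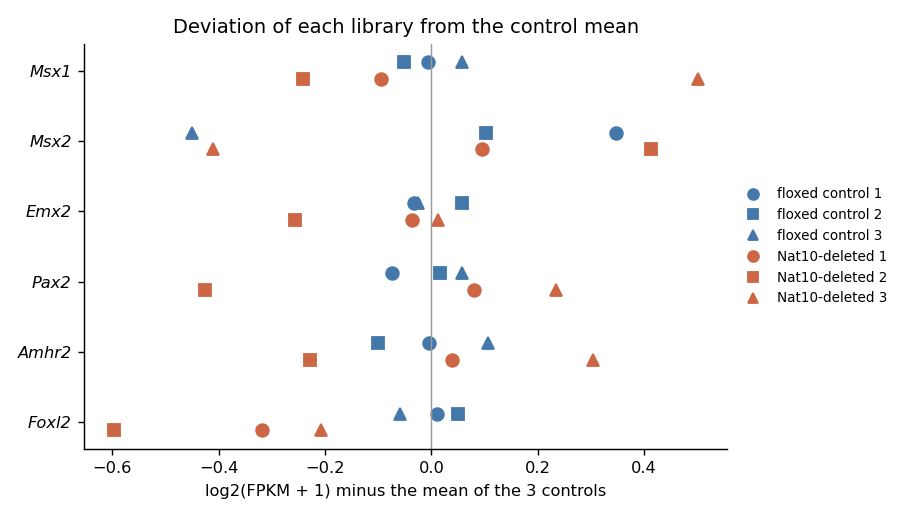
Log2(FPKM + 1) of each factor in each library minus the mean of the 3 controls (horizontal axis, log2 scale); blue symbols are floxed controls, orange symbols Nat10-deleted libraries, and shapes give replicate numbers. Nat10-deleted replicate 2 lies left of every other library for all factors but Msx2, and Nat10-deleted replicate 3 reaches 0.50 for Msx1.

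Markers of cell types moved between the same libraries, and in whole tissue fewer cells of a type and less RNA per cell cannot be told apart. As a check of the labelled tissue, the libraries held Hoxa10 (116 to 151 FPKM) and Hoxa11 (65.8 to 86.7 FPKM), homeobox genes of the uterus. The steroid receptor genes Esr1 (83.9 to 134 FPKM) and Pgr were also present. Pgr was at 60.3 to 73.8 FPKM in controls and 25.4 to 35.3 FPKM in deleted uteri. It was lower without overlap (log2 change -1.06, SE 0.15; limma adjusted p 0.669), as 4.6% of all tested genes were. Proliferation genes (7 of 8 tested) stood furthest apart: their median deviation was 1.83 in Nat10-deleted replicate 2 and -0.93 and -1.50 in replicates 1 and 3, and 0.73, -0.90 and 0.22 in control replicates 1, 2 and 3. Their summed level was 15.8 to 63.6 FPKM in controls and 7.85 to 159 FPKM in deleted libraries. Epithelial markers (12 of 12 tested, 10 higher and 2 lower on average in deleted uteri) summed to 708, 795 and 833 FPKM in controls and 911, 798 and 933 FPKM in deleted replicates 1, 2 and 3. Without overlap between the groups, 4 of the 12 were higher (Epcam, Cldn7, Wnt7a and Esrp1) and 0 lower, against 10.7% of all tested genes in either direction. In replicate 2, where Emx2, Msx1 and Pax2 were low, 5 of the 12 were below every control (Krt18, Krt19, Cldn4, Klf5 and Spint1), 5 were above every control (Epcam, Krt8, Cldn7, Wnt7a and Esrp1) and 2 were inside the control range. Stromal markers (10 of 10 lower on average) summed to 3279 to 3726 FPKM in controls and to 2786, 3723 and 2742 FPKM in the deleted libraries, and smooth muscle markers (4 of 7 higher) to 4003 to 4607 and 4781, 4483 and 3727 FPKM. The stromal sum of replicate 2, where Foxl2 was lowest, lay inside the control range, but 5 of its 10 genes, the collagen genes Col1a1, Col1a2 and Col6a3 with Lum and Vim, were above every control there, and 4, Pdgfra, Dcn, Hand2 and Nr2f2, were below every control. None of the stromal genes was without overlap with all libraries in. Without Nat10-deleted replicate 2 the log2 change was -0.95 for Col1a1 and -0.67 for Col1a2, against -0.49 and -0.32 with all libraries. That of Dcn went the other way, to 0.14 from -0.15. In that setting Col1a1 had a limma adjusted p of 0.0349, and 12 of 12531 tested genes passed 0.05. Several other lists held genes that were lower without overlap, as Foxl2 was and as 4.6% of all tested genes were. They were 2 of 6 endothelial markers (Kdr and Tek), 2 of 5 mesothelial markers (Msln and Lrrn4), 1 of 7 smooth muscle markers (Lmod1) and 1 of 2 tested gland markers (Foxa2). The endothelial markers (6 of 6 lower on average) summed to 244 to 274 FPKM in controls and 211 to 233 FPKM in deleted libraries, without overlap. The mesothelial sum, of which Wt1 was the largest share, was 60.7 to 77.7 FPKM in controls and 61.8 to 73.2 FPKM in deleted libraries. Msln was at 4.08, 5.41 and 6.24 FPKM in controls and 3.57, 3.67 and 2.83 FPKM in deleted uteri, and Lrrn4 at 2.56, 3.70 and 3.17 FPKM and 1.38, 2.24 and 1.10 FPKM. Leukocyte markers (5 of 6 lower) summed to 59.5 to 71.4 and 42.2 to 79.9 FPKM, and blood markers (5 of 5 lower) to 851 to 5581 and 709 to 1723 FPKM, and 0 genes of these lists were without overlap. The part of cell makeup in the differences of the 6 genes was not tested.

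**Figure D3:**
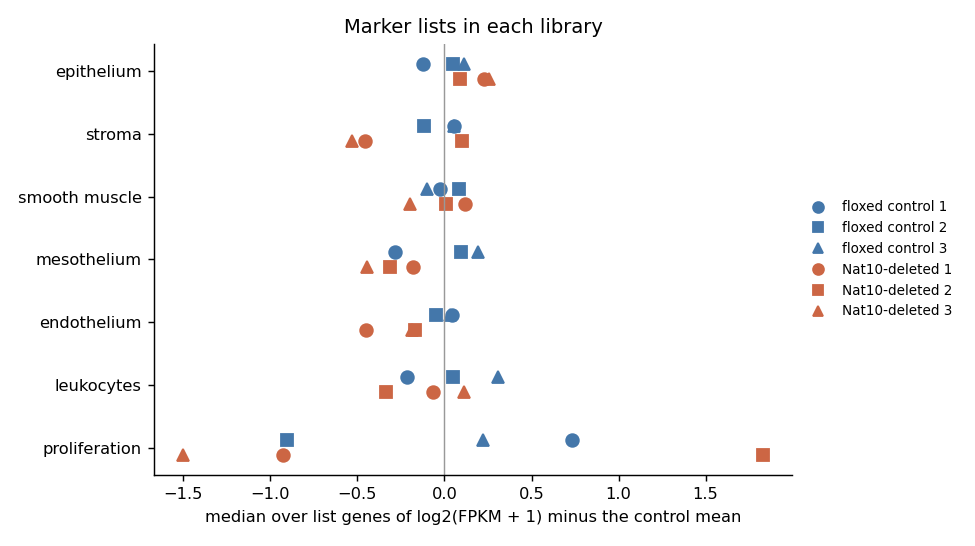
Median over the tested genes of each marker list of log2(FPKM + 1) minus the control mean (horizontal axis, log2 scale), by library; colours give the group and shapes the replicate number. Proliferation genes range from -1.50 in Nat10-deleted replicate 3 to 1.83 in Nat10-deleted replicate 2, a wider range than that of the other lists.

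Neighbouring organs were looked for because Foxl2, Amhr2, Pax2 and Emx2 are also made there. Of 17 ovarian markers, 6 were listed at 0 in all libraries, among them Fshr, Cyp19a1 and Zp3. The 3 tested were Inha, Star and Gdf9, and all 3 overlapped between the groups. Star was at 2.22 to 3.81 FPKM over the 6 libraries and Gdf9 at 0.395 to 1.58. The whole list summed to 10.1 to 12.7 FPKM in controls and 8.03 to 14.6 FPKM in deleted libraries, of which Inha gave up to 9.24 in 1 library. Foxl2 was at 18.1 to 28.9 FPKM, and the series holds no ovary library to set these levels against. The oviduct list (8 genes, none at 0 throughout) summed to 340 to 374 and 244 to 363 FPKM and was led by Tppp3, which the uterus also expresses and which gave up to 290.4 FPKM. Of its ciliated-cell genes, Foxj1 did not exceed 0.396 FPKM, Ccdc39 was at 2.51 to 3.14 FPKM over the 6 libraries and Cfap126 at 0.744 to 4.52, and Rsph1 was higher without overlap in the deleted libraries (1.10, 1.01 and 2.06 FPKM in controls, 2.50, 2.70 and 2.35 FPKM in deleted uteri). Markers of cervix and vagina (9 genes, 1 at 0 throughout) summed to 12.7, 5.96 and 5.85 FPKM in controls and 3.12, 5.84 and 2.53 FPKM in deleted libraries, so that the sums did not overlap, by 5.85 against 5.84 FPKM where they came closest. Of the 2 genes tested from it, Krt15 was lower without overlap (5.37, 2.87 and 2.25 FPKM in controls, 1.03, 1.75 and 0.568 FPKM in deleted uteri). Hoxa13, the homeobox gene of the lower tract, did not exceed 0.111 FPKM. Of 6 kidney and mesonephros markers, Umod, Slc12a1 and Slc34a1 were listed at 0 in all 6 libraries. Cdh16, the 1 gene tested from this list, was at 4.57, 2.98 and 3.19 FPKM in controls and 8.23, 4.17 and 5.66 FPKM in deleted uteri, with overlap (log2 change 0.59, SE 0.24; 0.37 without Nat10-deleted replicate 1). The part of neighbouring tissue in the differences of the 6 genes was not tested.

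Of the genes of duct formation, 9 of 15 were tested and 1 had an unadjusted p under 0.05 in limma, against 4.98% of all tested genes. This was Dlx5, a distal-less homeobox gene, at 21.6, 19.5 and 21.6 FPKM in controls and 29.5, 31.0 and 30.0 FPKM in deleted uteri (log2 change 0.51, SE 0.10; limma adjusted p 0.778). Its groups did not overlap and its deleted libraries lay close together, unlike those of most of the 6 factors. The other 8 overlapped between the groups, and the median log2 change of the list was -0.05. Wnt4, a ligand needed for the duct to form, had a mean of 6.17 ± 2.60 FPKM in controls and 4.43 ± 0.515 FPKM in deleted uteri (SD, n = 3; log2 change -0.34, SE 0.25; limma adjusted p 0.926), and its change was -0.07 without control replicate 2. Lhx1, the homeobox gene that starts duct formation in the embryo, was listed at 0 in all 6 libraries.

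The genes of regional identity along the tract, 10 of 13 tested, had 8 lower and 2 higher on average (median log2 change -0.06), and 3 of the 10 did not overlap between the groups, against 10.7% of all tested genes. Wnt7a, the epithelial ligand that maintains uterine identity, was higher, at 9.65, 13.4 and 13.8 FPKM in controls and 21.1, 24.7 and 14.8 FPKM in deleted uteri (log2 change 0.66, SE 0.21; limma adjusted p 0.922). Wnt7a is also on the list of epithelial markers and was counted there too. Wnt5a, its mesenchymal counterpart, was lower, at 76.2, 56.1 and 53.2 FPKM in controls and 42.9, 44.5 and 45.6 FPKM in deleted uteri (log2 change -0.45, SE 0.15; limma adjusted p 0.922). Without control replicate 1, the highest library, the Wnt5a change was -0.30 (unadjusted limma p 0.0576). Wnt7a was at 0.51 without that library (unadjusted limma p 0.056). Hoxd9, named after its values were seen, was the other gene without overlap (log2 change -0.28, SE 0.12). Hoxa10, whose product represses Emx2 in the uterus, had a log2 change of -0.05 (SE 0.13) and Hoxa11 of -0.04 (SE 0.14). In Nat10-deleted replicate 2 the median of this list was -0.31 relative to the control mean, and the other lists were low there too: -0.28 for duct formation, -0.28 for the genes around the MSX factors, -0.28 for the related genes of the same families, -0.24 for the genes linked to FOXL2 and -0.13 for AMH signalling.

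Genes around the MSX factors, BMP ligands with their receptors, targets and epithelial partners, numbered 12 tested of 15. On average 5 were higher and 7 lower, with a median log2 change of -0.01. At an unadjusted p under 0.05 limma found 0 of the 12, against 4.98% of all tested genes. Bmp2, which MSX factors and BMP signalling regulate in several tissues, was listed at 8.37, 7.79 and 8.28 FPKM in controls and 9.65, 4.99 and 11.9 FPKM in deleted uteri (log2 change 0.03, SE 0.26). Bmp4 was at 14.5, 10.3 and 13.4 FPKM in controls and 13.3, 5.32 and 14.7 FPKM in deleted uteri (log2 change -0.27, SE 0.34). Without Nat10-deleted replicate 2 the change of Bmp4 was 0.14 and that of Bmp2 0.36 (unadjusted limma p 0.0234 for Bmp2). In that setting 1700 of 12531 tested genes had an unadjusted limma p under 0.05. Both had the deleted order of Msx1, low in replicate 2 and high in replicate 3. The inhibitors of differentiation Id1 (log2 change 0.16, SE 0.10) and Id3 (-0.15, SE 0.12) did not overlap between groups, in opposite directions (2 of 12, against 10.7% of all tested genes). Lif, the cytokine of implantation, was left out by the filter, with 0.402 to 0.615 FPKM in controls and 0.571 to 1.76 FPKM in deleted uteri.

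Genes linked to FOXL2 in ovary, pituitary or uterus numbered 9 tested of 11, with 7 lower and 2 higher on average and a median log2 change of -0.08. Those with an unadjusted p under 0.05 in limma were 2 of the 9 (4.98% of all tested genes), Fst and Rspo1, both lower without overlap (4.6% of all tested genes). Fst encodes follistatin, an activin antagonist whose gene is a known FOXL2 target in the pituitary, and was listed at 6.10, 2.15 and 2.73 FPKM in controls and 1.02, 1.16 and 1.64 FPKM in deleted uteri (log2 change -0.95, SE 0.30; limma adjusted p 0.922). Without control replicate 1, the highest library, the Fst change was -0.60. Rspo1, a Wnt pathway agonist of the ovary, was at 19.0, 20.6 and 24.6 FPKM in controls and 16.3, 14.1 and 16.7 FPKM in deleted uteri (log2 change -0.42, SE 0.13; limma adjusted p 0.922), with a change of -0.32 and an unadjusted limma p of 0.0555 without control replicate 3. Over the 5 lists none of the tested genes passed an adjusted p of 0.05 in limma.

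**Figure D4:**
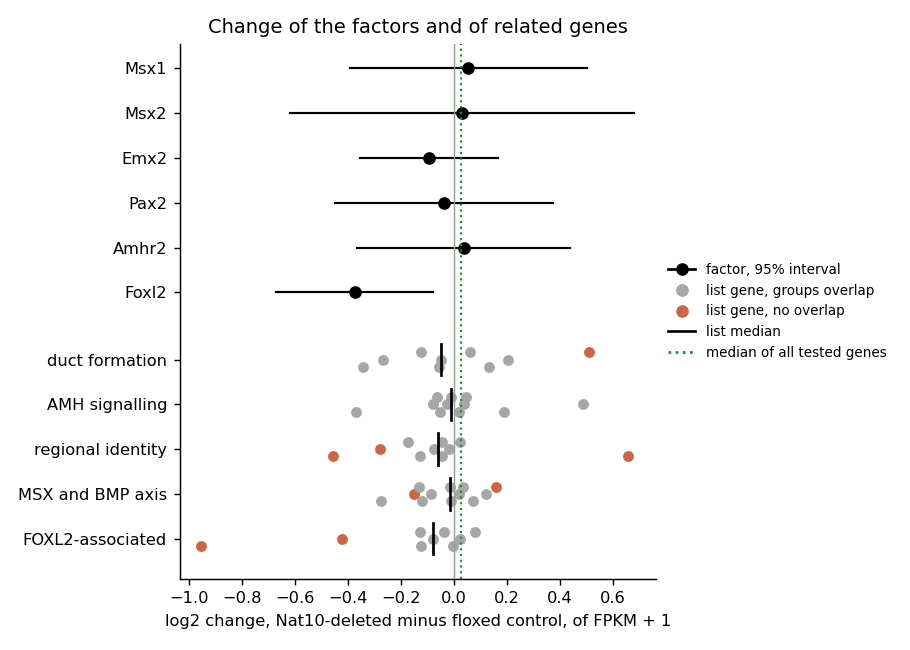
Log2 change of FPKM + 1, Nat10-deleted minus floxed control (horizontal axis), for the 6 factors with 95% intervals and for the tested genes of 5 related lists, with list medians as black ticks and the median of all tested genes (0.028) as a dotted line. Foxl2 has the interval that does not include 0 (-0.67 to -0.08), and orange points are list genes whose groups do not overlap.

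The genes whose profiles over the 6 libraries were most like each factor were found by the root mean square difference of centred log2(FPKM + 1) values among the tested genes. For Foxl2 these were Rev3l (0.031), Tmem245 (0.038) and Flrt1 (0.059), and Rev3l ran at 58.5, 58.3 and 57.3 FPKM in the floxed mice and 48.0, 38.5 and 50.0 FPKM in the deleted ones. For Msx1 they included Plcg1 (0.040) and Itgb7 (0.046), which share the high value in Nat10-deleted replicate 3. For Pax2 they were Trio (0.033), Jmjd1c (0.033) and Arhgef3 (0.036), for Amhr2 Mkrn1 (0.024), Hoxb2 (0.027) and Gab1 (0.030), and for Emx2 Xylt2 (0.023), Smad4 (0.026) and Slc22a3 (0.027). For Msx2 they were Mettl1 (0.088), Rtn4ip1 (0.098) and Wbp1 (0.107). Among the 6 factors themselves, Pax2 and Amhr2 (0.099) and Msx1 and Amhr2 (0.101) were the closest pairs, and Msx1 and Msx2 (0.532) the most distant. Likeness over 6 libraries is a description and includes the group difference.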

How the data were processed

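Per the submitters' processing notes, the authors used HISAT2 2.2.1 and Cufflinks 2.2.1 with mm10. The deposited values are FPKM, 1 table per library, made by the authors. The annotation, gene filter and strand setting are not given in the sources used here. The labels' protocols name TRIzol for the RNA and the TruSeq RNA kit for the libraries.

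FPKM were analysed as log2(FPKM + 1), so changes of low genes are understated. Genes with at least 1 FPKM in at least 3 libraries were tested between the groups (limma 3.58.1, R 4.3.3; lmFit and eBayes with trend, no covariate, two-sided, Benjamini-Hochberg over all tested genes, threshold 0.05). Depth was estimated from the values. The product of FPKM and transcript length piles up at the worth of 1 fragment in low genes with 1 transcript, from which 12600000 to 15400000 fragments per library were estimated. Fragment numbers are approximate and use the longest transcript, and errors derived from them cover counting only. Positions and overlaps come from GENCODE release M21 (GRCm38, the build of mm10), which held 20558 of the identifiers. Upstream sequences come from RefSeq and were found for 6 of the 6 genes. Python 3.11.15 with pandas 2.3.3 and matplotlib 3.10.9 was used.

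The 6 genes and all lists were chosen with earlier results of these data known. Some genes are on more than 1 list, among them Wnt7a. Genes were named by role, as the 2 list genes with the largest change without overlap, or as the 3 likest genes of a factor (1 of those of Msx1 is not reported here). Alternatives were other scalings, filters, pseudocount and variance models, array weights, a replicate block, and each library left out in turn.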

Additional observations from a re-analysis of the deposited data

How the results depend on the processing

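Of 96 values of the log2 changes of the 6 genes under alternative settings, 87 kept their sign, 9 did not, and 0 passed an adjusted p of 0.05 in limma. Foxl2 and Emx2 kept their sign throughout, and the adjusted p of Foxl2 ranged from 0.0579 (array quality weights, change -0.32) to 1. Msx1 was -0.00079 after quantile normalization and -0.041 with array quality weights, and Pax2 was 0.083 with array quality weights. Leaving out 1 library gave -0.46 to -0.26 for Foxl2, -0.15 to -0.01 for Emx2, -0.17 to 0.20 for Msx1, -0.19 to 0.25 for Msx2, -0.17 to 0.16 for Pax2 and -0.10 to 0.17 for Amhr2. Msx2 was below 0 when control replicate 3 (-0.19) or Nat10-deleted replicate 2 (-0.16) was left out. The number of the 6 genes without overlap was 1 to 3 when 1 library was left out, an alternative chosen after seeing the data, in which 15.0% to 31.8% of all tested genes did not overlap. Leaving out libraries for the genes of the lists was also chosen after seeing the data. Over all genes, limma called 316 with array quality weights (147 higher and 169 lower) and 0 to 12 when 1 library was left out, the 12 without Nat10-deleted replicate 2, and 0 under the other settings. At an unadjusted p under 0.05 limma found 3730 genes with array quality weights, 1700 without Nat10-deleted replicate 2, 1397 without Nat10-deleted replicate 3, 345 to 469 with 1 of the other libraries left out, and 604 to 886 under the other settings, so the 4.98% used as background moves with the libraries. With the replicate number as a block limma called 0 genes, and Foxl2 had the same change of -0.37 (adjusted p 0.849). Deviations of same-numbered libraries correlated at -0.341, -0.029 and 0.1 across genes. Only Nat10-deleted replicate 3 correlated best with its own number, and the highest correlation, 0.273, was that of control replicate 3 with Nat10-deleted replicate 1. Depth limits Msx2 and Amhr2 most among the 6, at 45 to 123 and 63 to 91 fragments per library.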
